A study of Drosophila melanogaster with 2 samples.

Results

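Peaks of the Drosophila transcription factor NFAT were read at 9 genes of the TOR and insulin signalling pathway, out of 13968 protein-coding genes of the annotation. The genes were Sesn, scyl, chrb, InR, Tor, S6k, Thor, foxo and crc. They were taken by name as growth and nutrient stress genes, with no threshold on their peaks. Earlier results of these data were known when they were chosen. A peak was counted for a gene where its summit, the base of highest signal, lay in the gene body or within 5 kb of it. For scyl a wider window was read, from 7307 bp upstream of the TSS to 53828 bp past the end of the gene. The gene called Tor here, the TOR kinase, carries the symbol mTor in the annotation used.

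The flies were transgenic and expressed NFAT fused to enhanced green fluorescent protein (eGFP), and bound DNA was recovered with an antibody against GFP. Chromatin came from whole embryos of 0 to 24 h, so all embryonic stages and tissues were pooled in each library. There were 2 biological replicates of this 1 group, and the design has no second condition. Over both replicates the thresholded list, which keeps peaks whose rank repeats by the irreproducible discovery rate (IDR), held 4899 peaks on the chromosome arms, and a conservative version held 3909. The list of replicate 1 alone held 2236 and that of replicate 2 alone held 3994. Peak lists carry no read totals, so depth is unknown, and no control immunoprecipitation was analysed here. Bound and unbound cells cannot be told apart in pooled embryos, and a weak peak can come from few cells or from weak binding in many.

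The TOR kinase, in the complex TORC1, drives growth when nutrients are plentiful by promoting translation and restraining autophagy. Insulin-like peptides act through the receptor InR and the kinases PI3K and Akt, which relieve the TSC block on TORC1 and keep the transcription factor foxo out of the nucleus. S6k and Thor, the fly 4E-BP, are TORC1 substrates that act on translation. Sesn (Sestrin), scyl (scylla) and chrb (charybde) are stress-induced inhibitors of TORC1, the last pair being fly relatives of REDD1, and crc encodes the fly ATF4 of the integrated stress response. NFAT is a Rel-domain factor. In mammals, NFAT proteins bind the core letters GGAAA, and most, but not all, reach the nucleus when calcineurin removes their phosphates. The fly protein lacks the calcineurin-binding region.

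All 9 genes held at least 1 summit in their window, 39 peaks in all, against 52.5% of all protein-coding genes under the 5 kb rule. With the 5 kb window for scyl too, all 9 still held a summit, with 29 peaks. A summit in the list did not always come with a small q-value. The −log10 q was 0.0291 and 0.693 at the peaks of chrb, and 0.0521 and 0.312 at those of S6k. At the strongest peak of each other gene it was at least 2.07. Since the genes were chosen with earlier results of these data known, the counts set beside all genes are a description. In the conservative list 7 of the 9 held a summit, against 46.4% of all genes. In replicate 1 alone it was 6 of 9, against 33.1%, and in replicate 2 alone 8 of 9, against 47.5%. The median body of the 9 genes was 11.5 kb, against 2.16 kb for all genes, with a range from 1.18 kb at Thor to 49.1 kb at InR. Among genes with a body of at least 10 kb, 5 of 5 members held a summit, against 66.8% of all such genes. Among shorter genes it was 4 of 4, against 50.2%. A summit somewhere in the window was thus common among all genes, and more so among the long ones.

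The strength of the peaks differed widely among the genes. Sesn, foxo and Thor each held a peak among the strongest 10% of the list, and 5 of the 39 peaks were that strong. Tor and scyl had their strongest peak in the upper 25%, and InR sat just outside it. The strongest peak of crc lay above the list median of 91.8, and those of chrb and S6k lay below it. Over all 39 peaks the median signal was 86.8, against 91.8 for the list, with 18 above the list median and 12 in its lowest 25%. Signal is the value that the peak caller gave each peak. No source used here states its scale, so it serves only to rank peaks within a list.

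**Figure D1:**
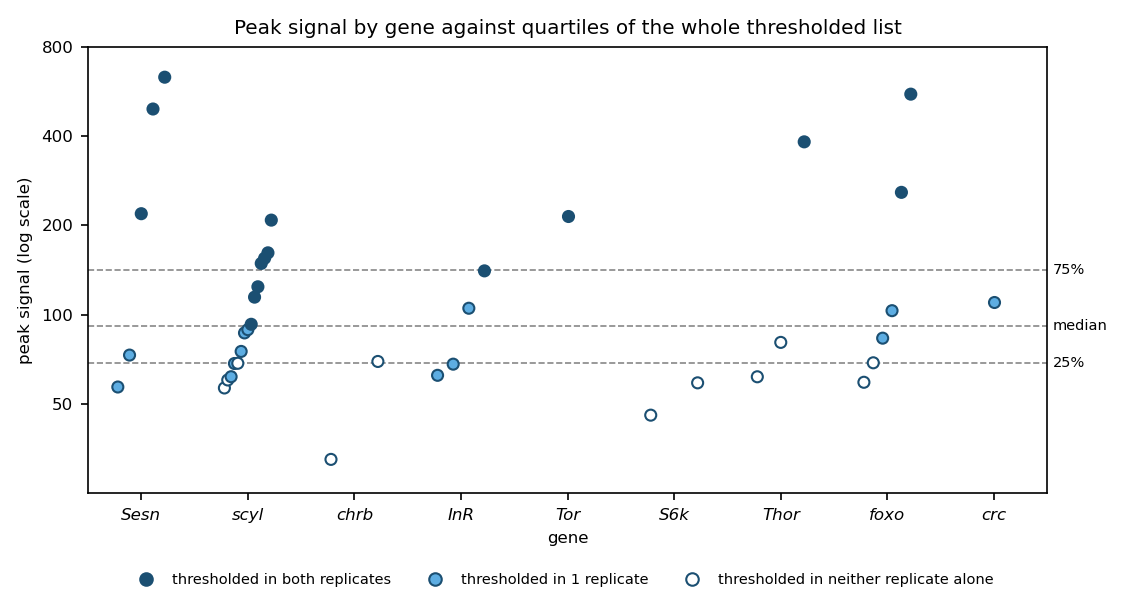
Signal of each thresholded peak (log scale) by gene, with dashed lines at the quartiles of the whole list of 4899 peaks. Filled points were thresholded in both replicates alone, light blue points in 1 and open points in neither. Sesn, foxo and Thor reach 633, 555 and 383, while both peaks of chrb and of S6k lie below the median of 91.8 and are open.

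A summit within 500 bp of a transcription start site (TSS) of the gene itself was counted as a promoter summit. Sesn, scyl, chrb, Tor and Thor had one, which is 5 of 9 genes, against 23.4% of all protein-coding genes. The conservative list and each replicate alone gave 4 of 9, with chrb the gene that dropped out. At least 4 summits in the body or within 5 kb of it were found at Sesn, scyl, InR and foxo. That is 4 of 9 genes, against 4.83% of all genes. Of these, Sesn, InR and foxo have bodies of 20.9, 49.1 and 31.0 kb, against a median of 2.16 kb for all genes. The share among genes of like length was not taken. Of the 39 summits, 25 lay at least as close to a TSS of their own gene as to that of any other protein-coding gene, counting 3 at Sesn that were tied with CG46429, and 13 lay in the body of their own gene. By position, 18 of the 39 summits were intergenic, 11 intronic, 9 in a promoter of any protein-coding gene and 1 in a coding exon. In the whole list 10.9% were intergenic, 26.3% intronic, 56.2% in promoters and 3.02% in coding exons. The scyl window, which reaches far past the gene on one side, holds many of the intergenic summits.

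**Figure D2:**
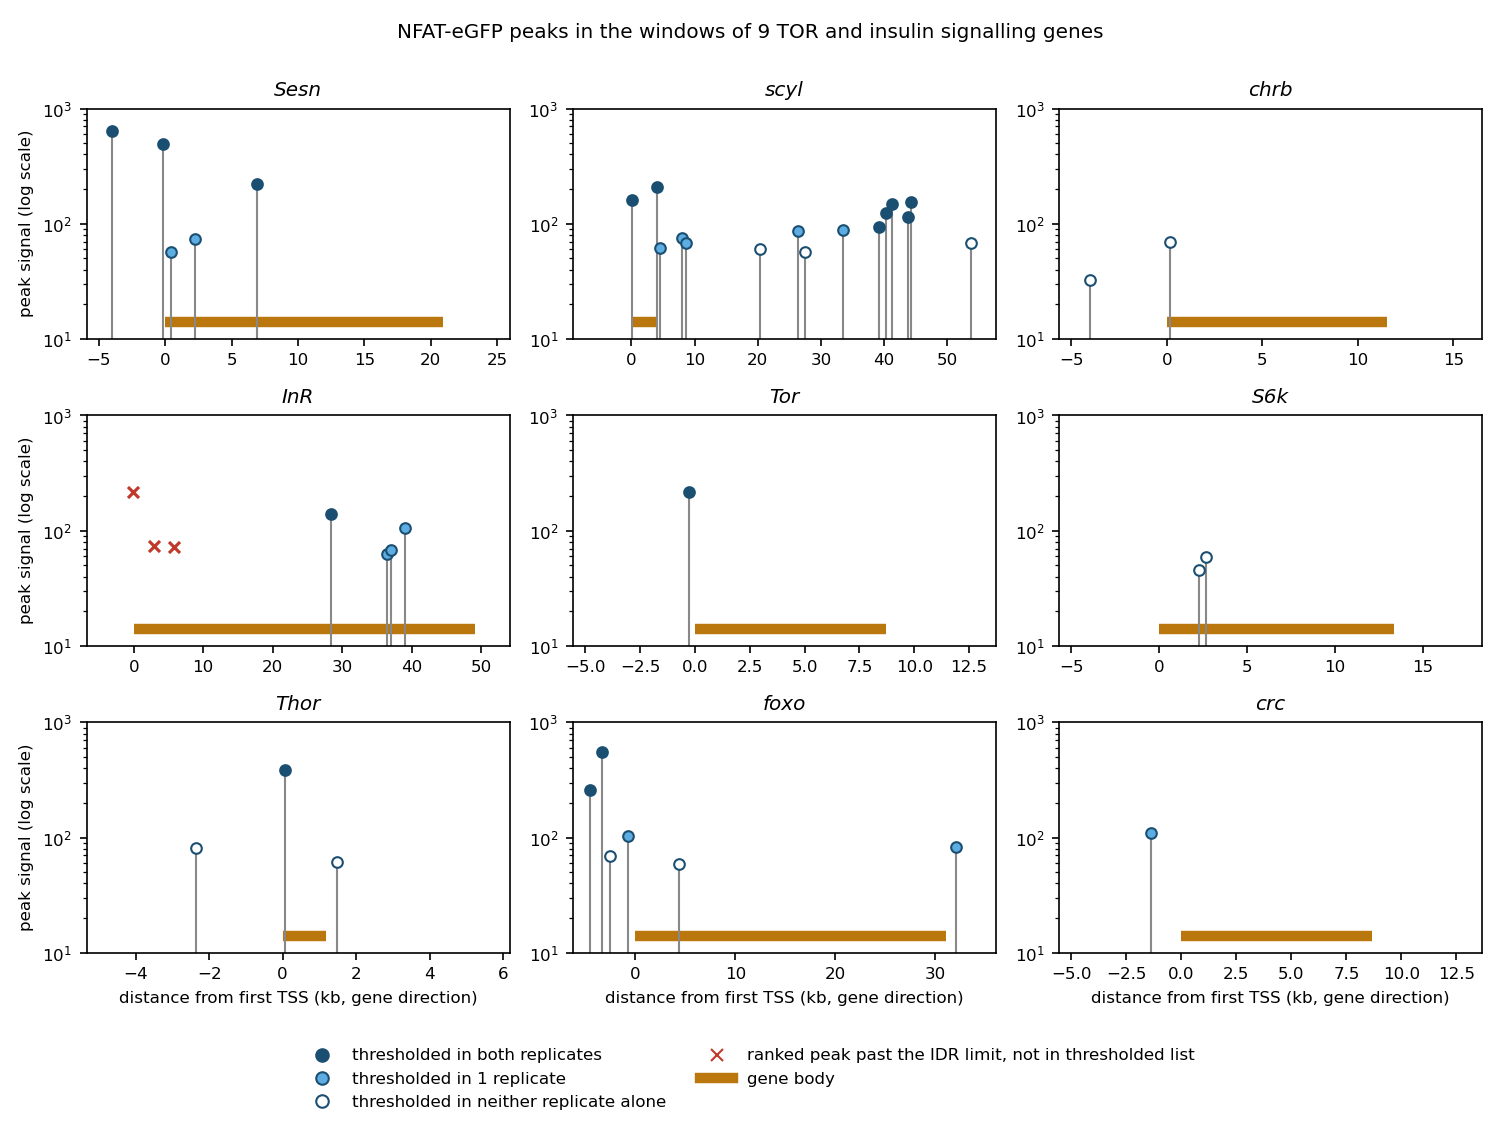
Signal of each peak (log scale) against its distance from the first TSS of the gene in kb, positive in the direction of transcription, with the gene body as a bar. Crosses mark ranked peaks at InR that pass the IDR limit but are absent from the thresholded list. Peaks of Sesn and foxo reach their highest values upstream of the body, and the 15 peaks of scyl run past the gene to 53.8 kb.

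Sesn encodes Sestrin, which restrains TORC1 under genotoxic and oxidative stress. The gene lies at chr2R:23713900-23734846 on the plus strand of dm6 and held 5 peaks. The strongest, chr2R:23709767-23709970, had a signal of 633, rank 55 of 4899. Its summit lay 4039 bp upstream of Sesn and 69 bp from the TSS of Alg3, a mannosyltransferase gene of N-glycosylation, so it is a promoter peak of Alg3 by position. In its own scale, replicate 1 gave 231 there and replicate 2 gave 405. The peak at the promoter of Sesn itself, chr2R:23713549-23713779, had a signal of 494, rank 96, with its summit 210 bp upstream of the TSS, which Sesn shares with CG46429. Replicate 1 gave 202 and replicate 2 gave 301. Another strong peak sat in an intron, 6929 bp downstream of the TSS, with a signal of 219, rank 564. Replicate 1 gave 69.5 and replicate 2 gave 145. Its summit was nearer to starts of other genes, 893 bp from the TSS of CG18128 and 178 bp from that of lncRNA:CR45325. These 3 peaks passed the threshold in each replicate alone. The other 2, at 464 and 2208 bp downstream, had signals of 57.0 and 73.0 and passed in replicate 2 only. Among genes of all lengths, 277 (1.98%) held as many as 5 summits.

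The other REDD1 relative beside scyl, chrb, is induced by hypoxia and inhibits TORC1 through TSC. It lies at chr3L:11487550-11499055 on the plus strand of the arm that also carries scyl, and held the weakest single peak of the 9 genes. A peak 138 bp from a chrb TSS, in the 5′ UTR, had a signal of 69.5, rank 3609. Replicate 2 gave 38.2 at that place, and replicate 1 had no peak there in its ranked list. The second, 4029 bp upstream, had a signal of 32.5, rank 4818, with 13.0 in replicate 1 and 17.1 in replicate 2. Neither passed the threshold in a replicate alone or overlapped a summit of the conservative list. The window was also poor in peaks of any rank, with 3.25 ranked peaks per 10 kb against a median of 12.6 over all genes, and 9.17% of genes had as few.

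At scyl the peaks were many and mostly of middle strength. The gene lies at chr3L:11252307-11256172 on the plus strand, and its window of 65 kb held 15 summits, of which 5 lay within 5 kb of the body. In the conservative list the window held 14, in replicate 1 alone 8 and in replicate 2 alone 11. For scale, 75 of the 4899 summits (1.53%) have as many as 15 summits, themselves included, within 32500 bp on either side, and the median is 5. The largest number was 23. Gaps between neighbouring summits ran from 440 to 11565 bp, with a median of 3023 bp.

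The peak at the scyl promoter, chr3L:11252334-11252416, had a signal of 162, rank 969, with its summit 52 bp downstream of the TSS in the 5′ UTR. Replicate 1 gave 41.8 and replicate 2 gave 109. The strongest peak of the window, chr3L:11256278-11256372, lay just past the end of the gene, 4013 bp from the TSS, with a signal of 208, rank 624, and gave 69.6 in replicate 1 and 132 in replicate 2. The next 7 peaks downstream were weaker, with signals from 56.6 to 89.0, and none of them passed in both replicates. A second group of 5 peaks followed at the neighbouring gene Dyro, with signals of 92.8, 124, 149, 115 and 155 in genome order, and all 5 passed in both replicates. The last peak, nearest to CG7573, had a signal of 68.5 and passed in neither. In all, 6 summits were nearest to the TSS of scyl, 8 to that of Dyro and 1 to that of CG7573, and the summit nearest to the Dyro TSS lay 153 bp from it. The window rule thus joins peaks at scyl with peaks at Dyro.

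The letters CACTG were found, on either strand, within 50 bases on either side of the summit, at 11 of the 15 summits of the scyl window. Over all 39 summits they were found at 17 (43.6%), against 30.0% of the list, and outside the scyl window at 6 of 24. The difference was smaller within 100 bases (59.0% against 50.1%) and in whole peaks (61.5% against 55.0%). The 4 strongest peaks at Dyro shared a longer stretch around these letters, CCCACTGTG or its reverse complement, a word noticed after the sequences had been read. It was found in 4 of the 39 peaks (10.3%), all in this group, against 42 of all 4899 (0.857%). Since the word was chosen on these peaks, its count here is a description. The 4 sequences are shown because they carry this shared word, on the plus strand of the Release 6 genome (dm6), 5′ to 3′, with the word in capitals.
scyl window peak 11, chr3L:11292565-11292665: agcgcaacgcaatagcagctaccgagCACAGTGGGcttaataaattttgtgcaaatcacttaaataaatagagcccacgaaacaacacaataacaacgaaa
scyl window peak 12, chr3L:11293473-11293573: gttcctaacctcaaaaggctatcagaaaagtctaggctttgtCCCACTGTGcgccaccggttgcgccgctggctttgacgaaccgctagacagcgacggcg
scyl window peak 13, chr3L:11296022-11296122: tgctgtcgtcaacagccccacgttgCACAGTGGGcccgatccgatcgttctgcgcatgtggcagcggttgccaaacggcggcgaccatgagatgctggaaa
scyl window peak 14, chr3L:11296462-11296562: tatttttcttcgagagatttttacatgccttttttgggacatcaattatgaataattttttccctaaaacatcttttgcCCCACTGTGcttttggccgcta
In peaks 12 and 14 the word read as CCCACTGTG on the plus strand, and in peaks 11 and 13 as its reverse complement, CACAGTGGG. Near the scyl promoter summit the shorter letters CACTG were present, just before the start of the called peak. They are shown in capitals in chr3L:11252318-11252344, which lies in the 5′ UTR.
scyl promoter site: ttcgaaaaaaaCACTGaacacagtaca

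InR, the insulin receptor, lies at chr3R:21570248-21619321 on the minus strand, with 4 annotated TSSs, and held 4 thresholded peaks, all inside the gene. The strongest, chr3R:21590728-21591011, was intronic, 679 bp from the most downstream TSS, with a signal of 141, rank 1236, and gave 45.1 in replicate 1 and 107 in replicate 2. It was the only one of the 4 in the list of replicate 1. A peak in a coding exon, chr3R:21580159-21580442, had a signal of 105, rank 2007, and gave 55.4 in replicate 2 with no ranked peak in replicate 1. The remaining pair were intronic, with signals of 62.4 and 68.1, and passed in replicate 2 only. None of the 4 was a promoter summit.

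The first promoter of InR did hold a strong ranked peak, which the thresholded list leaves out. Its summit lay 38 bp upstream of the first TSS, with a signal of 218, exceeded by 568 thresholded peaks, and a −log10 IDR of 4.79, past the limit of 2. Replicate 1 gave 93.3 there, rank 535 of its ranked list, and replicate 2 gave 130.2, rank 615. Both replicates thus held it well up their own rankings. Further ranked peaks past the limit but outside the thresholded list lay in introns, 2627 and 5537 bp downstream of the next InR TSS at 21619036, with signals of 74.0 and 72.3. In all, 177 ranked peaks on the arms passed the limit without being in the thresholded list. The deposited descriptions give the thresholded lists 1 extra input file whose nature no source used here states, and its part in this difference was not tested. With such peaks added, 6 of 9 genes had a promoter summit, against 24.0% of all genes. The sequence shown is the part of the window around that summit that lies upstream of the first InR TSS. It does not follow the limits of the called peak. It is on the plus strand of dm6, with the longer NFAT letters TGGAAA in capitals as their reverse complement.
InR promoter peak, chr3R:21619322-21619409: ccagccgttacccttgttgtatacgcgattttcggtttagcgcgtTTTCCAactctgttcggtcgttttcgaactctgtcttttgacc

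Tor, at chr2L:13004480-13013197 on the plus strand, held a single peak, chr2L:13004163-13004266, of signal 215, rank 588. It gave 76.5 in replicate 1 and 134 in replicate 2 and passed the threshold in both. Its summit lay 247 bp upstream of Tor but 126 bp from the TSS of Vha68-1, a gene for the catalytic subunit of the vacuolar proton pump that is read in the opposite direction. By position the peak belongs to both promoters. The window around its summit is shown because it held TGGAAA, in capitals as its reverse complement, on the plus strand of dm6. This window reaches past the end of the short called peak, and the word lies in that outer part.
Tor peak, chr2L:13004183-13004283: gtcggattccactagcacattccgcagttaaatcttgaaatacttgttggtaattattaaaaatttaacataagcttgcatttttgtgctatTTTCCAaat

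S6k, the TORC1 substrate kinase that phosphorylates ribosomal protein S6, lies at chr3L:5797549-5810931 on the minus strand. Both of its peaks were intronic and weak, 2251 and 2680 bp downstream of the TSS. Their signals were 45.8, rank 4781, and 58.9, rank 4416. Replicate 1 gave 11.9 and 25.1 at these places, and replicate 2 gave 33.7 and 36.6. Neither passed in a replicate alone by overlap, although the second overlapped a peak of the conservative list. The list of replicate 2 held 1 summit in the window, away from both peaks. The promoter of S6k held no thresholded summit.

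Thor encodes the 4E-BP translation repressor and is a known target of foxo under starvation. This short gene, chr2L:3478434-3479612 on the plus strand, held 3 peaks. The middle one, chr2L:3478384-3478594, had its summit 13 bp from a TSS in the 5′ UTR, with a signal of 383, rank 177, the top 3.61% of the list. Replicate 1 gave 126 and replicate 2 gave 262. The upstream peak, 2351 bp from the TSS, had a signal of 80.6, rank 2937, and the downstream one, 1404 bp away, had 61.7, rank 4195. Neither of these flanking peaks passed in a replicate alone. Of the 9 windows that of Thor was the richest in ranked peaks, with 20.6 per 10 kb against the median of 12.6 over all genes.

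The letters of a FoxO site, GTAAACA, were found 23 bp past the summit of the Thor promoter peak, and in no other member window of that length. That is 2.56% of the member peaks, against 3.02% of the list. Within 100 bases on either side the count was 5 of 39 (12.8%), against 6.14%. The Thor promoter site shows that match in capitals, plus strand of dm6, within the 5′ UTR. The upstream Thor peak is shown because it held TGGAAA once on each strand, both in capitals.
Thor promoter site, chr2L:3478519-3478545: cgcagtttgtGTAAACAatcaaattgt
Thor upstream peak, chr2L:3476033-3476133: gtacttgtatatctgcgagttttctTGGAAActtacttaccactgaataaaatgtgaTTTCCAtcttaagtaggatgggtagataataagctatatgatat

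The forkhead factor gene foxo encodes the transcriptional effector that insulin signalling restrains. The gene lies at chr3R:14056945-14087978 on the plus strand and held 6 peaks, a count that 112 genes of all lengths (0.802%) reached. The strongest, chr3R:14053491-14053728, had a signal of 555, rank 78, with its summit 3332 bp upstream of the first TSS. Replicate 1 gave 219 there and replicate 2 gave 348. Further upstream, chr3R:14052357-14052454 had a signal of 259, rank 397, and gave 112 in replicate 1 and 144 in replicate 2. These intergenic peaks were the only ones at foxo that passed in both replicates. A peak 710 bp upstream had a signal of 103, rank 2075, and passed in replicate 2 only. The rest had signals from 59.1 to 83.3, and the last of them lay past the end of the gene, 557 bp from Npc2b, a sterol-binding protein gene. The sequence within 50 bases of the strongest foxo summit is shown because the peak ranks high and yet this window held none of the 16 listed motifs. Within 100 bases of that summit, TATAAA was found on the minus strand and CACTG on the plus strand. The sequence is written plus strand, dm6, with no capitals.
foxo upstream peak, chr3R:14053563-14053663: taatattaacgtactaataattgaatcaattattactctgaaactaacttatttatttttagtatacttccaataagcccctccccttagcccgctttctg

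The gene crc, for the bZIP factor ATF4, lies at chr2L:21310866-21319527 on the plus strand. Its only peak, chr2L:21309321-21309604, had a signal of 110.2, rank 1842. The summit lay 1403 bp upstream of crc but 26 bp from a TSS of Mondo, a glucose-sensing bHLH factor gene, in the 5′ UTR of Mondo. Replicate 2 gave 59.7 and passed the threshold, and replicate 1 had no ranked peak there. Replicate 2 alone held another peak nearby, with a signal of 58.0 and its summit 9 bp from a Mondo TSS. Within the whole crc window the ranked list held just that 1 peak, a density that 5.26% of genes had or fell below. The letters of an ATF4 composite site, TGATGNAA, were found in this peak, 1 of 39 (2.56%), against 1.10% of the list, and within 100 bases on either side 2.56%, against 2.61%. They are in capitals in the crc upstream site, plus strand of dm6. The chrb promoter site is set beside it with its reverse complement of TGGAAA.
crc upstream site, chr2L:21309411-21309437: acgcggatcTGATGGAAggccaacaag
chrb promoter site, chr3L:11487685-11487711: gattcagctaTTTCCAagctctctcgc

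Across the 39 peaks the NFAT core letters GGAAA, on either strand, were found within 50 bases of the summit in 10 (25.6%), against 26.4% of the list. The longer TGGAAA, which contains the core, was found in 6 (15.4%), against 11.1%. The share with the core was thus close to that of the list. Matches were spread over 7 of the 9 genes, and S6k and crc had none. Of the 16 motifs searched, 6 had no match within 50 bases of any member summit, among them the CRE TGACGTCA, the E-box CACGTG and the AP-1 site TGAGTCA. The DRE letters TATCGATA were found once, in the Alg3 promoter peak, against 3.25% of the list. GAGA letters were found in 4 of 39 peaks, against 14.1%. The median G and C content of the windows was 46.5% for the 39 peaks and 43.6% for the list.

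Every member peak in the upper 25% of the list by signal passed the threshold in both replicates, and the replicates differed at weaker ones. Of the 39 peaks, 15 overlapped a thresholded peak in both replicates, against 39.8% of the list, and 12 did so in replicate 2 only, against 33.5%. The only peak that did so in replicate 1 only was in the scyl window. In neither replicate did 11 of the 39, against 22.3% of the list. Of those passing in both, 7 were in the scyl window, 3 at Sesn, 2 at foxo and 1 each at InR, Tor and Thor. When all ranked peaks of a replicate were taken, 34 of the 39 overlapped a peak in replicate 1 and all 39 in replicate 2. Where a peak passed in both, the summit of replicate 1 lay a median of 12 bp from that of the combined list. Replicate 1 has the shorter thresholded list over the whole genome, and 16 of the 39 overlapped it, against 44.2% of the list, while 27 overlapped that of replicate 2, against 73.3%.

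**Figure D3:**
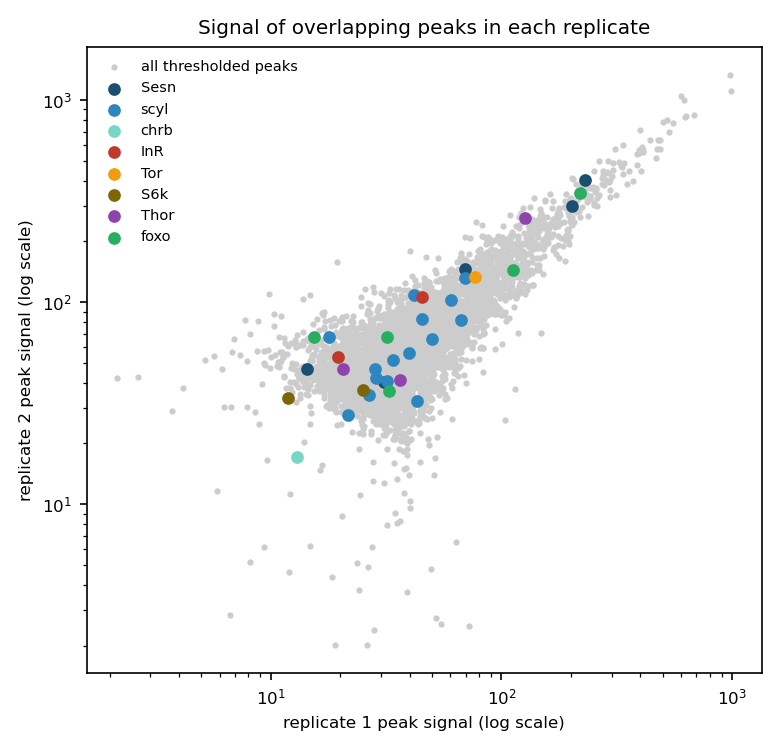
Signal of the overlapping peak in replicate 2 against that in replicate 1 (log scales), with the peaks of the 9 genes in colour over all thresholded peaks in grey. The strong peaks of Sesn, foxo, Thor and Tor lie high in both replicates, and 5 peaks with no ranked peak in replicate 1, among them the only crc peak, are not plotted.

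Beyond these 9 genes, 72 other genes of the pathway were read, from a list of 75 of which 3 had no single match in the annotation. A promoter summit was found at 27 of them (37.5%), against the 23.4% of all genes given above. By the 5 kb window 48 of 72 (66.7%) held a summit, against 52.5%. The shares differed widely by role. None of 10 genes for insulin-like peptides and their secreted binders had a promoter summit, whereas 6 of 10 genes of the receptor-proximal and PI3K branch did.

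Among the genes of the PI3K branch, sgg, the fly GSK3 kinase, had 260.0, Pi3K21B, the PI3K regulatory subunit, had 196, melt, a PH-domain regulator of TOR and foxo, had 107, and the kinase gene Pdk1 had 105. Of these 4, Pdk1 had no promoter peak in the list of replicate 1 or in the conservative list. The other 3 had one in both replicates. Pi3K92E and Akt, the remaining genes of the branch with a promoter summit, had 80.7 and 79.4, and Akt had its promoter peak in the list of replicate 2 only. Of 7 genes for TSC, Rheb and the TOR complexes, only the TORC2 subunit gene Sin1 had a promoter summit, of signal 64.3. The list of neither replicate alone held a summit at the Sin1 promoter. Amino acid sensing and lysosomal genes had 4 of 15. The strongest promoter peak of the whole pathway list was here, at the Ragulator subunit gene Lamtor3, with 763, rank 38, and 336 in replicate 1 and 429 in replicate 2. The GATOR2 subunit gene Wdr24 followed with 314, then the GATOR1 subunit gene Iml1 with 97.9 and the amino acid transporter gene slif with 68.9. At slif too, neither replicate alone had a promoter summit.

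Of 4 energy sensing genes 3 had a promoter summit. The AMPK subunit genes alc and SNF4Agamma had 147 and 87.7, and the AMPK-activating kinase gene Lkb1 had 83.8. SNF4Agamma had no promoter summit in the list of replicate 1, and Lkb1 had none in the conservative list. Translation and growth effectors had 6 of 12. REPTOR, a transcription factor that TORC1 holds in the cytoplasm, was the strongest of them, with 614, rank 62, and 204 in replicate 1 and 407 in replicate 2. The Mondo partner gene bigmax had 219, at a summit nearer to Hmu, RpS6 had 168, and Mondo had the same peak as crc. Autophagy genes had 4 of 6, with Atg17 at 287, nearer to Xe7, Atg8a at 126, Atg13 at 93.6 and Atg1 at 78.0. Atg8a and Atg1 had no promoter summit in the list of replicate 1, and Atg13 had none in that of replicate 2. Of 8 genes of the integrated stress and unfolded protein responses 3 had a promoter summit. These were the bZIP factor genes Atf3 with 498 and Xbp1 with 201.4, and the kinase gene Ire1 with 166, nearer to Mrm2. Xbp1 had none in the list of replicate 1.

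**Figure D4:**
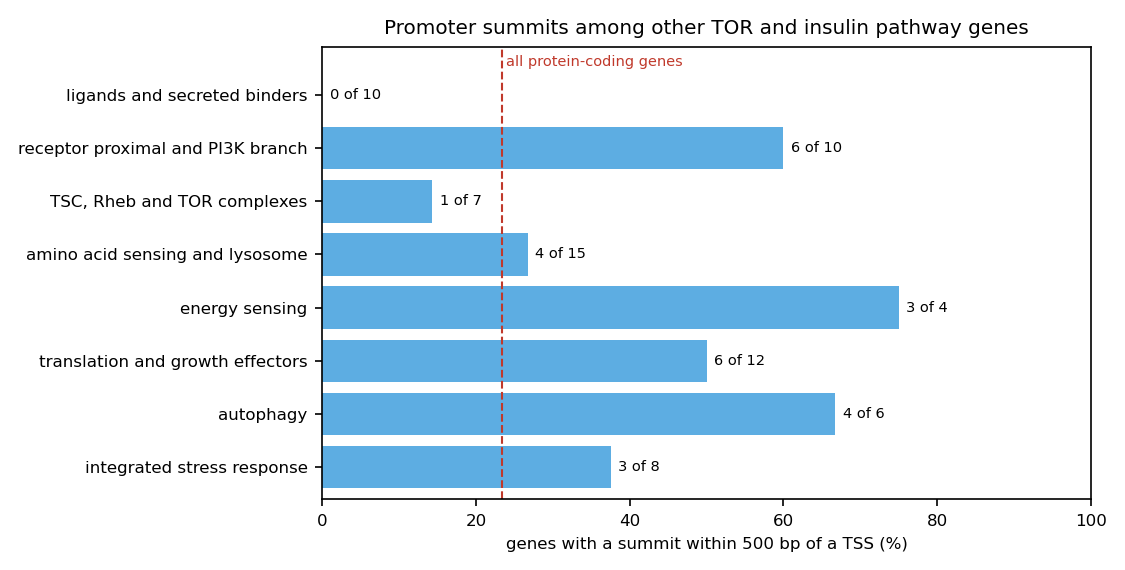
Share of genes with a thresholded summit within 500 bp of a TSS, in percent, for 8 role groups of 72 other pathway genes, with counts beside the bars and the share of all protein-coding genes (23.4%) as a dashed line. Ligand genes stand at 0 of 10 and energy sensing genes at 3 of 4, and the groups are small.

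For scale, the protein-coding genes outside the 9 with the most summits in body and 5 kb were CHES-1-like with 15, CG1677 with 13 and Svil with 12, against 6 at foxo and 5 each at Sesn and scyl under that rule.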

How the data were processed

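The files were peak lists on dm6, per the labels, made for each replicate and for both together, per the deposited descriptions. No source used here names the aligner, the peak caller or the scale of the signal. In the deposited lists column 7 is a signal per peak made by the authors' caller, column 9 the −log10 of a q-value and column 10 the summit offset. In the ranked lists the authors deposited, column 12 is a score, the −log10 of the global IDR. Chromatin was sonicated to a size range of 200 to 800, per the labels. Peaks outside the chromosome arms were left out (25 of the main list).

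Genes and TSSs came from Ensembl release 115 (BDGP 6.54), and sequences from the Release 6 genome of RefSeq. The symbol Tor is a synonym shared with torso and was read as the kinase gene mTor. Each summit took the first fitting class of promoter (500 bp of any protein-coding TSS), UTR, exon, intron and intergenic. Replicate peaks overlapped by at least 1 bp. Motifs were matched on both strands within 50 bases of the summit, also where this window reached past a short called peak. The text names the 9 genes, the nearest gene where another is closer, up to 4 genes per pathway role with the strongest promoter summit, and the 3 other genes with the most summits. Members and lists were chosen with earlier results of these data known. With 1 group no test between conditions exists, so values are given beside the same value over all genes or peaks, with no p-value. The counting steps were tested on simulated peaks. Python 3.11.15, NumPy 2.4.6, pandas 2.3.3 and matplotlib 3.10.9 were used.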

Additional observations from a re-analysis of the deposited data

How the results depend on the processing

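Alternatives changed the list of peaks, the distance counted as a window or promoter, the motif window or the replicate used. The 39 member peaks became 18 among the stronger 50% of the list, and 17 to 30 when 1 replicate was left out. The share of all genes with a summit in their window, 52.5%, became 46.4% in the conservative list, 36.7% in the stronger 50%, 13.9% in the body alone, 33.0% within 1 kb, 66.1% within 10 kb and 33.1% to 47.5% without a replicate. The share with a promoter summit, 23.4%, became 19.9% in the conservative list, 15.1% in the stronger 50%, 26.6% within 1000 bp, 19.4% within 250 bp and 13.0% to 21.2% without a replicate. Pathway genes with a promoter summit, 27, became 16 to 26 without a replicate. Peaks found in both replicates, 15, became 34 with all ranked peaks. The NFAT core was found in 10 member peaks within 50 bases of the summit, 17 within 100 bases and 21 in whole peaks, and the FoxO letters in 1, 5 and 5. The setting that added ranked peaks past the limit and the 5 kb window for scyl, which left 29 member peaks, were chosen after the data were seen. Against the list, FoxO letters were less frequent in member peaks within 50 bases (2.56% against 3.02%) and more frequent within 100 bases (12.8% against 6.14%) and in whole peaks (12.8% against 8.19%). The order also turned within 100 bases for the ATF4 composite (2.56% against 2.61%) and the E-box (2.56% against 2.37%), and in whole peaks for heat shock letters (10.3% against 7.33%). At single genes, chrb had no summit in either replicate alone, and crc and S6k had none in replicate 1. Depth is unknown, so the absence of a weak peak from a replicate cannot be told apart from shallow sequencing. No paired analysis was possible because the samples form 1 group, and no result comes from a test.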
